A study of Oryza sativa with 6 samples.

Results

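In rice roots, 75 of 37942 gene models differed at least 2-fold between salt and control in S-type lateral roots while staying close to their control level in the other root types. Of these, 36 were higher and 39 lower under salt, which is 0.272% and 0.294% of the 13254 gene models with enough fragments to be considered. They were chosen by their ratios alone: the log2 ratio of salt over control, with 1 added to each value, had to reach 1 in either direction in S-type roots and stay within 0.5 of 0 in L-type lateral and nodal roots. The higher library of each of the 3 pairs also had to hold at least 50 scaled fragments, which are sequenced fragments per gene multiplied by 1 factor per library. All 75 genes meet this minimum by definition. Because the same ratios chose the genes, they are given below as a description and no test is made of them.

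Messenger RNA came from rice with the genotype label Mulai, as 1 library for each of 6 groups: S-type, L-type and nodal roots kept in 50 mM NaCl, and the same root types under control conditions. Salt and control treatments lasted 7 days, and plants grew in a warm day and a cooler night of equal length. With 1 library per group there is no replicate check of any difference. Each 95% interval given with a ratio covers the error of counting fragments and no other, and is of the ratio without the added 1. Fragments are also not independent molecules. Plant age, the number of plants in a library, their sharing between root types and the hour of collection are not in the labels.

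Rice forms nodal roots from the stem, and these carry lateral roots of different kinds. S-type laterals are short, thin and unbranched, while L-type laterals are longer, thicker and able to branch. Salt around a root lowers water availability and brings in sodium, and roots are known to answer with changes in transport, cell wall formation, protein protection and hormone signalling. Cytokinins are among these hormones: LOG enzymes release the active form, and type-A response regulators are switched on by it and dampen the signal. In bulk root samples, fewer cells of a kind and less RNA per cell cannot be told apart.

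The libraries held 8711710, 7194615 and 7908373 fragments in genes for salt S-type, L-type and nodal roots, and 6229661, 5620282 and 7897875 for the control libraries in the same order. The median salt ratio over the 13254 genes lay between -0.02 and -0.002 in the 3 root types. The secondary wall cellulose synthase genes CESA4, CESA7 and CESA9, markers of vessel-forming tissue, had log2 ratios of -0.17 to 0.37 in S-type, 0.55 to 0.81 in L-type and -0.55 to -0.35 in nodal roots. The S-type libraries held 25 to 67 fragments of each, against 1639 to 2625 in the nodal libraries, and each S-type counting interval includes 0. The mitotic cyclin gene CYCB1;1 had log2 ratios of 0.35 (interval 0.09 to 0.60) in S-type, -0.09 (-0.23 to 0.06) in L-type and -0.02 (-0.16 to 0.12) in nodal roots. Only its S-type interval leaves out 0. The light-harvesting genes CAB1R and CAB2R, of green tissue, held 27 and 2 fragments in salt S-type roots, against 49 and 2 in control S-type roots. CAB1R was lower under salt in every root type, with log2 ratios of -1.34 in S-type, -1.80 in L-type and -2.01 in nodal roots. CAB2R held 0 fragments in salt and 3 in control L-type roots, and 21 in salt and 113 in control nodal roots. The clock gene LHY, which peaks around dawn, had log2 ratios of -3.14 in S-type, -2.17 in L-type and -2.50 in nodal roots, and the evening gene PCL1 held 89 to 191 fragments in the salt libraries against 1 to 3 in the controls. The clock genes PRR1 and GI differed less. Their log2 ratios were 0.71 and 0.59 in S-type, 0.29 and 0.47 in L-type and 1.24 and 0.94 in nodal roots. LHY and PCL1 thus differed between salt and control in every root type, and the part of collection time in the ratios below was not tested.

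S-type roots had 153 genes at least 2-fold higher under salt, 1.15% of the genes at the minimum, and 144 lower, 1.09%. The genes changed in S-type roots alone make up 23.5% of the higher and 27.1% of the lower genes. Many of the rest also moved the same way in another root type. L-type roots passed 0.5 in the same direction for 77 of the 153 higher and 81 of the 144 lower genes, and nodal roots for 69 and 59. L-type roots passed 0.5 in the opposite direction for 24 of the higher and 8 of the lower genes, and nodal roots for 7 and 17. Ratios within 0.5 of 0 were common: 85.7% of the genes at the minimum had one in S-type roots, 82.5% in L-type roots, 89.3% in nodal roots and 76.3% in both L-type and nodal roots.

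The same rule turned to the other root types gave 34 genes higher and 175 lower under salt in L-type roots alone, and 47 higher and 13 lower in nodal roots alone. At 2-fold, whatever the other root types did, 1.01% of the genes at the minimum were higher and 3.08% lower under salt in L-type roots, and 1.17% were higher and 0.702% lower in nodal roots. The higher and lower genes of S-type roots were thus of similar number, while those of L-type roots were mostly lower and those of nodal roots mostly higher. The differences between these counts were not tested.

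**Figure D1:**
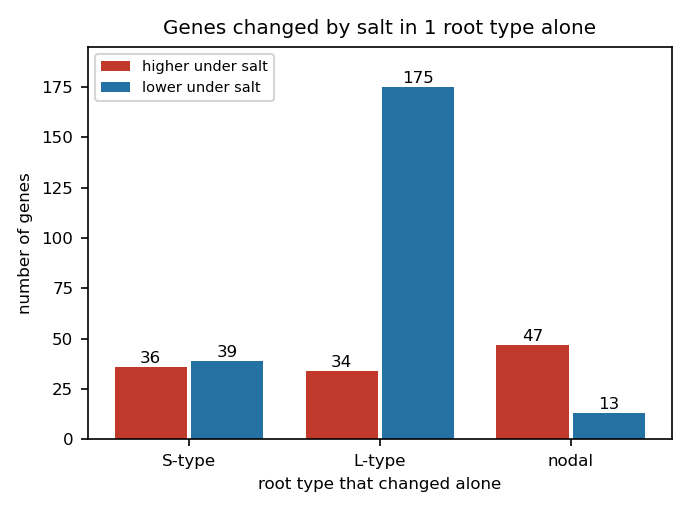
Number of genes at least 2-fold higher (red) or lower (blue) under salt in 1 root type while the other root types stayed within 0.5 on the log2 scale; bars start at 0. S-type roots have 36 higher and 39 lower genes, L-type roots 34 and 175, and nodal roots 47 and 13.

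Most of the 75 genes lie close to the limit. The log2 ratio in S-type roots lay between 1 and 1.2 for 22 of the 36 higher genes, and 6 reached 1.5. Among the 39 lower genes, 22 lay between -1.2 and -1 and 5 reached -1.5. The median was 1.18 for the higher and -1.11 for the lower genes, against -0.02 over all genes at the minimum. Only Os01g0607200 reached 4-fold higher without rounding, and none of the 39 lower genes reached 4-fold.

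At the edge of the rule, Os01g0533100, Os11g0703900 and Os05g0528000 had log2 ratios of 1.002, 1.004 and 1.01 just inside the higher limit, and Os03g0726400, Os01g0224100 and Os04g0410250 had 0.992, 0.991 and 0.987 just outside it. On the lower side HSP18.8, LOGL7 and Os01g0936600 had -1.003, -1.004 and -1.01 just inside, and Os02g0302700, Os01g0143900 and Os06g0587200 had -0.997, -0.975 and -0.975 just outside. In the other root types, 13 of the higher and 8 of the lower genes had an absolute ratio of 0.4 to 0.5 in L-type or nodal roots, so that they nearly missed the rule. These are 36.1% and 20.5%. The larger ratio lay in that range for 11.1% of all genes at the minimum, and for 14.5% of those within 0.5 of 0 in both other root types. A ratio within 0.25 of 0 in both other root types was found for 14 of the higher and 13 of the lower genes. These are 38.9% and 33.3%, against 38.4% of all genes at the minimum and 50.3% of those within 0.5 of 0 in both. L-type and nodal ratios were both below 0 for 9 of the higher and 20 of the lower genes, against 30.5% of all genes at the minimum, and both above 0 for 12 of the higher and 8 of the lower genes, against 29%.

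**Figure D2:**
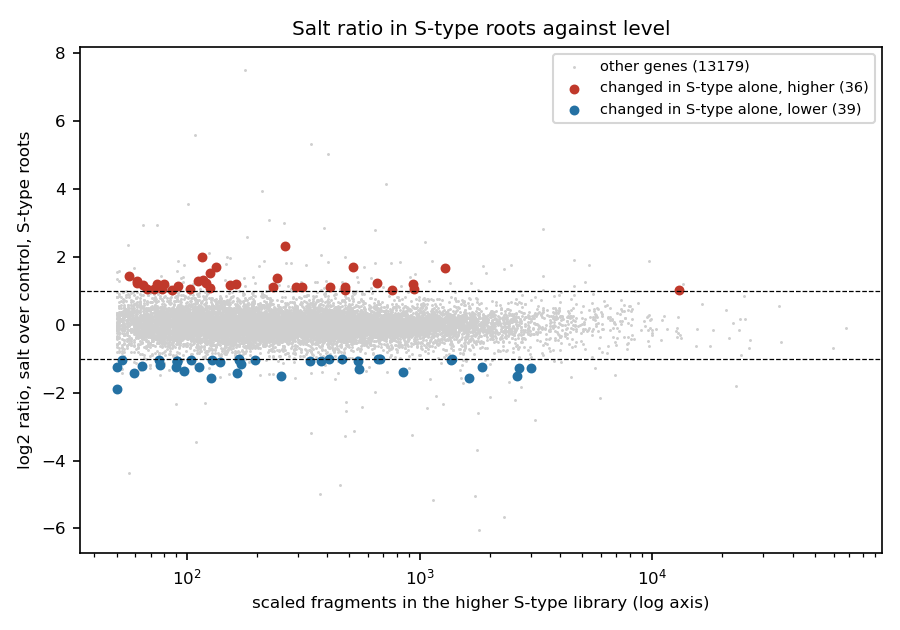
Log2 ratio of salt over control in S-type roots (vertical axis) against the scaled fragments in the higher of the S-type libraries (horizontal, log axis) for the 13254 genes at the minimum; dashed lines mark the 2-fold limits. Most of the 36 higher (red) and 39 lower (blue) genes lie close to the limits, and the grey genes beyond the limits had a ratio of at least 0.5 in size in another root type.

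Many of the genes were weakly expressed. The higher genes held a median of 144.5 fragments in the salt S-type library and 40.5 in the control one, against medians of 295 and 211 over all genes at the minimum. The lower genes held a median of 91 fragments under salt and 131 under control. Per length, 18 of the 36 higher and 14 of the 39 lower genes stayed under 20 FPKM (fragments per kilobase of transcript, scaled to library size) in every library, against 29.1% of the genes at the minimum. Counting error alone left the S-type ratio away from 0 in all 75 genes, as the rule nearly forces, and in 39% of all genes at the minimum. The interval lay wholly beyond 2-fold for 6 of the higher and 10 of the lower genes, and for 0.981% of all genes at the minimum. It stood apart from the intervals of both other root types for 30 of the 36 higher and 30 of the 39 lower genes, and for 10.7% of all genes at the minimum. The rule used these ratios, so nothing is read from these counts.

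The files list genes by identifier, and 11 of the 75 genes carry a symbol here. Each symbol rests on recall of the identifier and on the neighbouring genes in the table of another rice assembly, and was sought after the values were seen, so the names and the functions given with them are less certain than the values.

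Among the genes higher under salt, the largest ratio was that of BAT1 (Os01g0607200, chromosome 1, 23923718 to 23933450 on IRGSP-1.0), named after an amino acid transporter of Arabidopsis. BAT1 held 266 scaled fragments in salt S-type roots, against 52.7 in control S-type roots. It held 113 in salt and 144 in control L-type roots, and 221 in salt and 206 in control nodal roots. The salt S-type library was the highest of the 6, and the control S-type library the lowest. The log2 ratio was 2.31 in S-type roots (interval 1.86 to 2.84, counting error only), -0.35 in L-type roots (-0.73 to 0.03) and 0.10 in nodal roots (-0.16 to 0.36). The model overlaps that of Os01g0607250, and how the authors' counting treated the strand is not given in the sources used here.

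FOS1 (Os02g0324400, chromosome 2, 13014487 to 13015524) encodes a CLE peptide, a class of short secreted signals, and in rice shoots it limits stem cells of the meristem. It held 61.2 scaled fragments in salt S-type roots and 24.4 in control S-type roots, with 109 and 110 in salt and control L-type roots and 92.9 and 96.4 in salt and control nodal roots. FOS1 was lowest in S-type roots under both treatments, and in the other root types the counting intervals of the ratio include 0. Its S-type log2 ratio of 1.29 has a wide interval of 0.57 to 2.14, since the control library held 19 fragments.

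RR6 (Os04g0673300, chromosome 4, 34375978 to 34377092) is a type-A response regulator of cytokinin signalling. It held 104 scaled fragments in salt S-type roots, against 50.1 in control S-type roots. L-type roots held 110 under salt and 109 under control, and nodal roots 138 and 170. The salt S-type level lay near the L-type levels, and control S-type roots were the lowest of the 6 libraries. The log2 ratios were 1.03 (0.51 to 1.61) in S-type, 0.02 (-0.39 to 0.43) in L-type and -0.30 (-0.60 to 0.01) in nodal roots.

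EME1 (Os04g0648700, chromosome 4, 33006324 to 33012988), part of an endonuclease that resolves joined DNA molecules during repair and recombination, had 112 scaled fragments in salt S-type roots and 45.004 in control S-type roots. The other 4 libraries held between 90.4 and 116. Control S-type roots thus stood below all other libraries, and the S-type log2 ratio was 1.29 (0.76 to 1.90).

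The other large ratios belong to genes without a symbol here. Os02g0318100 (chromosome 2, 12645475 to 12647953) held 116 scaled fragments in salt and 28.3 in control S-type roots, a log2 ratio of 2.0 (1.38 to 2.76). Its other libraries held 55.6 to 100.2. Os01g0155000 had a ratio of 1.51 (0.98 to 2.11), Os01g0580200 of 1.42 (0.65 to 2.35) and Os01g0757900 of 1.35 (0.99 to 1.75). Os01g0848400 had 1.32 (0.80 to 1.91) and Os04g0599700 1.22 (0.51 to 2.05). The control S-type library held 16 fragments of Os01g0580200 and 20 of Os04g0599700. L-type ratios were 0.49 (0.15 to 0.85) for Os01g0580200 and 0.44 (0.01 to 0.89) for Os01g0757900. The models of Os01g0757900 and Os01g0848400 each overlap another.

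Os01g0200700 (chromosome 1, 5478545 to 5479749) differed from most of the higher genes in being far above the other root types to begin with. It held 1291 scaled fragments in salt S-type roots and 405 in control S-type roots, against 80.0 and 86.4 in salt and control L-type roots and 97.9 and 77.3 in salt and control nodal roots. Both S-type libraries were above every other library, and the gap was wider under salt, with a log2 ratio of 1.67 in S-type roots. Os09g0482800 (chromosome 9, 18618052 to 18618753) held 519 scaled fragments in salt S-type roots and 159 in control S-type roots. Its L-type level was 100.2 under salt and 137 under control, and its nodal level 159 and 174. Salt S-type roots stood alone here, the other 5 libraries lying between 100.2 and 174. Os01g0108600 (chromosome 1, 478384 to 481165) had 134 scaled fragments in salt and 41.1 in control S-type roots, with 138 and 193 in L-type and 121 and 141 in nodal roots under salt and control. It was low in control S-type roots alone, with an S-type ratio of 1.68 (1.15 to 2.30).

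The most abundant gene per length was Os11g0703900 (chromosome 11, 28804256 to 28808548), with 834 FPKM in salt S-type roots and 424 in control S-type roots. L-type roots had 899 FPKM under salt and 797 under control, and nodal roots 1103 and 1093. Its S-type log2 ratio of 1.004 (0.96 to 1.05) rests on 14480 fragments under salt and 5054 under control, so it is precise as a count and yet lies on the limit. Os01g0200700 followed with 568 FPKM in salt and 177 in control S-type roots, then Os09g0482800 with 158 and 48.4 and Os02g0775100 with 95.9 and 38.5. The model of Os02g0775100 overlaps 2 others.

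**Figure D3:**
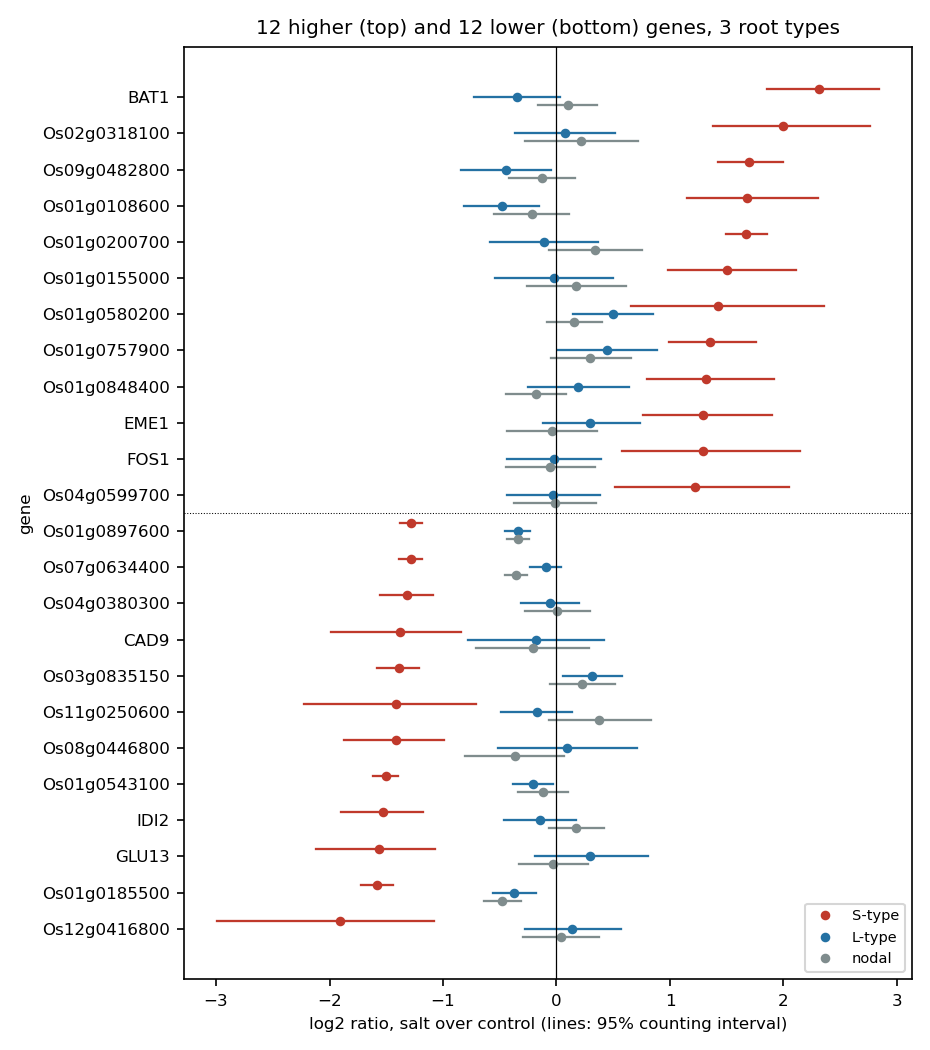
Log2 ratio of salt over control in S-type (red), L-type (blue) and nodal (grey) roots for the 12 higher genes (top) and 12 lower genes (bottom) with the largest S-type ratios; points are ratios and lines 95% counting intervals. S-type ratios run up to 2.31 for BAT1 and down to -1.91 for Os12g0416800, and the other root types lie within 0.5 of 0 by the rule.

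Among the genes lower under salt, GLU13 (Os06g0256900, chromosome 6, 8178991 to 8184548), an endoglucanase that cuts glucan chains of the wall, held 42.3 scaled fragments in salt S-type roots and 127 in control S-type roots. Its levels in salt and control were 86.5 and 70.2 in L-type roots and 154 and 157 in nodal roots. The salt S-type library was the lowest of the 6, at a log2 ratio of -1.57 (-2.12 to -1.07). The model overlaps that of Os06g0257050.

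CAD9 (Os03g0223200, chromosome 3, 6453022 to 6455848) is of the cinnamyl alcohol dehydrogenase family, which makes lignin alcohols. It held 36.9 scaled fragments in salt S-type roots, against 97.7 in control S-type roots, and 49.7 to 64.3 in the other 4 libraries. Salt S-type roots were lowest and control S-type roots highest, with a ratio of -1.38 (-1.99 to -0.84). SNL6 (Os01g0639200, chromosome 1, 25640940 to 25647509), a cinnamoyl-CoA reductase-like protein required for a defence response in rice, held 81.9 scaled fragments in salt and 168 in control S-type roots. L-type roots held 84.6 under salt and 85.2 under control, and nodal roots 43.1 and 50.4. Salt S-type roots lay near the L-type level, at an S-type ratio of -1.03 (-1.44 to -0.64).

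Os01g0897600 (chromosome 1, 39004988 to 39010603) has no symbol here. It held 1241 scaled fragments in salt S-type roots and 3017 in control S-type roots. The levels under salt and control were 1224 and 1553 in L-type roots and 1388 and 1757 in nodal roots. All 3 root types were lower under salt, S-type roots by a log2 ratio of -1.28 (-1.38 to -1.19), L-type roots by -0.34 (-0.46 to -0.23) and nodal roots by -0.34 (-0.43 to -0.25). The L-type and nodal intervals leave out 0, so its difference was larger in S-type roots in these libraries and not absent elsewhere. Os01g0897600 is not alone in this, and an L-type or nodal interval left out 0 for other genes of both groups. Examples are the L-type ratios of Os02g0775100, 0.49 (0.13 to 0.86), and Os11g0703900, 0.20 (0.16 to 0.23). The nodal ratio of Os07g0634400, -0.35 (-0.45 to -0.26), is another.

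IDI2 (Os11g0216900, chromosome 11, 6102863 to 6106487) is methylthioribose-1-phosphate isomerase of the methionine salvage cycle, and its barley counterpart was named for induction by iron deficiency. Grasses make their iron-binding phytosiderophores from methionine. IDI2 held 87.3 scaled fragments in salt S-type roots, against 253 in control S-type roots, with 172 and 190 in salt and control L-type and 251 and 222 in salt and control nodal roots. Salt S-type roots were lowest, and nodal roots and control S-type roots were of like level. The log2 ratio was -1.53 (-1.90 to -1.18) in S-type, -0.15 (-0.46 to 0.17) in L-type and 0.18 (-0.07 to 0.42) in nodal roots. The nicotianamine synthase genes NAS1 and NAS2, on the way to phytosiderophores, had S-type ratios of -5.05 and -5.65, but also L-type ratios of -2.57 and -3.68, and nodal ratios of 0.67 and 0.59, in the opposite direction. Both other root types thus keep NAS1 and NAS2 outside the rule. Other genes of iron deficiency differed in direction in nodal roots. The S-type, L-type and nodal ratios were -6.05, -6.34 and -3.66 for YSL2, whose nodal ratio rests on 6 and 86 fragments. They were -2.22, -1.23 and 1.58 for YSL15, and -5.17, -3.93 and -0.56 for Nramp1.

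LOGL7 (Os05g0541200, chromosome 5, 26868399 to 26870416) is of the LOG family that activates cytokinins. It held 82.8 scaled fragments in salt S-type roots and 167 in control S-type roots, with 135 and 117 in salt and control L-type and 82.1 and 76.5 in salt and control nodal roots. Control S-type roots were highest, and salt S-type roots lay near nodal roots. The model overlaps that of Os05g0541250. LOGL7 and RR6 are the genes with a symbol that belong to cytokinin function, and they differed in opposite directions, each close to 2-fold.

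HSP18.8 (Os07g0517100, chromosome 7, 19935503 to 19936423), a small heat shock protein that keeps unfolding proteins soluble, had 203 scaled fragments in salt and 409 in control S-type roots, 278 and 306 in salt and control L-type roots and 138 and 133 in salt and control nodal roots. OsC3H35 (Os05g0195200, chromosome 5, 5846045 to 5848186), a CCCH zinc finger protein, had 337 in salt and 679 in control S-type roots, 148 and 150.3 in salt and control L-type roots and 109 and 93.0 in salt and control nodal roots. OsC3H35 was highest in both S-type libraries, and its nodal FPKM, 18.1 under salt and 21.4 under control, ran opposite to its scaled fragments, while the L-type libraries of HSP18.8 lay between its S-type ones. Their S-type ratios were -1.003 (-1.26 to -0.76) and -1.01 (-1.21 to -0.82).

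**Figure D4:**
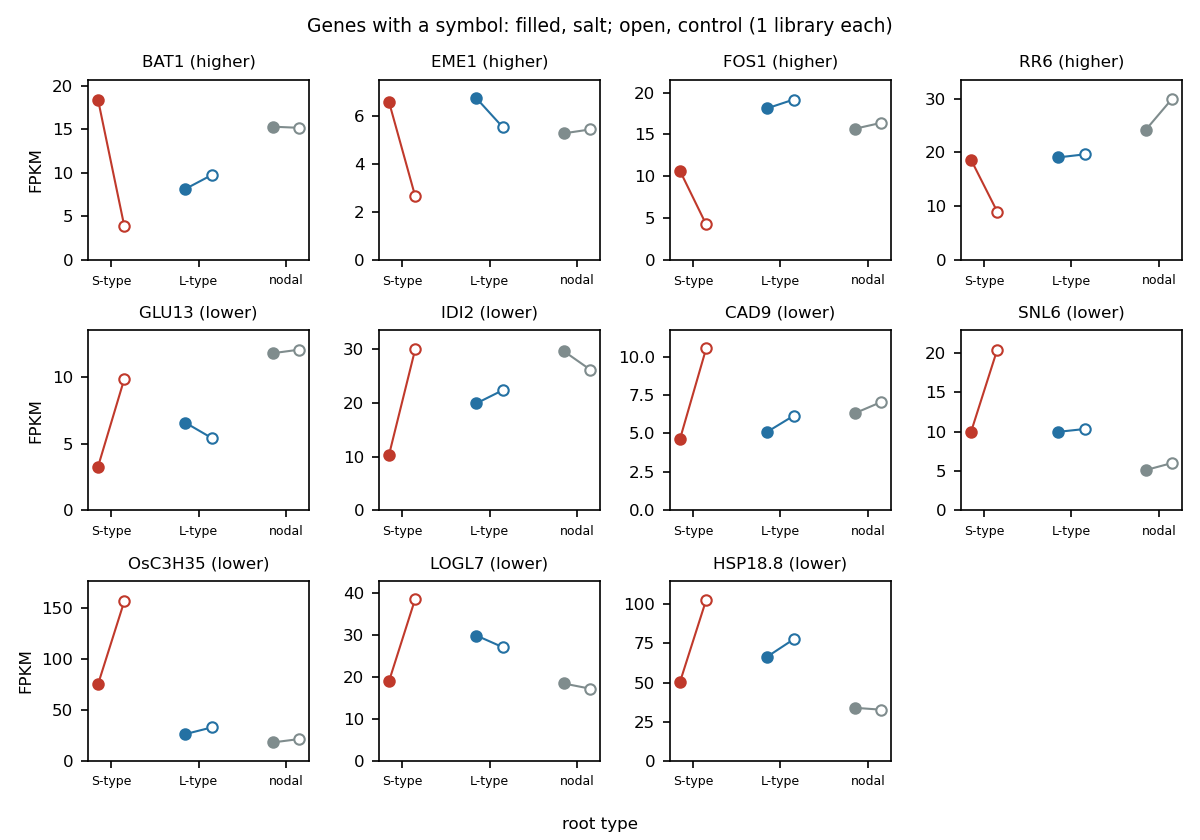
FPKM of the 11 genes with a symbol in S-type (red), L-type (blue) and nodal (grey) roots, with salt as filled and control as open points, 1 library each; vertical axes start at 0 and differ between panels. Salt is above control in S-type roots for BAT1, EME1, FOS1 and RR6 and below it for the other 7.

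Among the lower genes without a symbol, Os12g0416800 (chromosome 12, 12864404 to 12866177) had the largest change, with 12.6 scaled fragments in salt and 50.1 in control S-type roots. Its L-type and nodal libraries held 100.2 to 129. This S-type ratio of -1.91 (-2.99 to -1.08) rests on 14 and 39 fragments, and the gene is right at the minimum. Os01g0185500 (chromosome 1, 4542295 to 4546633) held 544 scaled fragments in salt and 1628 in control S-type roots, with 440 and 569 in L-type and 458 and 638 in nodal roots under salt and control. All its salt libraries lay below their controls, and the nodal ratio of -0.48 (-0.64 to -0.32) nearly met the limit. The S-type ratio was -1.58 (-1.72 to -1.44).

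Os01g0543100 (chromosome 1, 20061961 to 20066455) and Os12g0567800 (chromosome 12, 23352196 to 23353175) were highest in S-type roots. Os01g0543100 held 923 scaled fragments in salt and 2623 in control S-type roots, 535 and 618 in salt and control L-type and 272 and 295 in salt and control nodal roots. Os12g0567800 held 770 in salt and 1849 in control S-type roots, 295 and 333 in salt and control L-type and 92.1 and 93.0 in salt and control nodal roots. In both genes the order of S-type above L-type above nodal roots held under either treatment, with a narrower gap under salt. Their S-type ratios were -1.51 (-1.62 to -1.40) and -1.26 (-1.39 to -1.14). Per length Os12g0567800 was the highest of the lower genes, with 374 FPKM in salt and 891 in control S-type roots, followed by Os07g0634400 with 171 and 415, Os01g0543100 with 110.5 and 313 and Os01g0897600 with 109.7 and 262.

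The remaining large changes were Os08g0446800 at -1.41 (-1.87 to -0.99), Os11g0250600 at -1.41 (-2.23 to -0.71) and Os03g0835150 at -1.39 (-1.58 to -1.21). Os04g0380300 followed at -1.32 (-1.55 to -1.09) and Os07g0634400 at -1.28 (-1.39 to -1.18). Os11g0250600 rests on 24 fragments in salt and 46 in control S-type roots, and had 11.2 FPKM in salt and 7.33 in control nodal roots. The models of Os08g0446800, Os11g0250600 and Os04g0380300 each overlap another. Os03g0835150 (chromosome 3, 35090847 to 35091639) held 323 scaled fragments in salt and 850 in control S-type roots. In L-type roots it held 308 under salt and 248 under control, and in nodal roots 190 and 162. It was thus lower under salt in S-type roots and somewhat higher in L-type roots, at a ratio of 0.31 (0.05 to 0.57). The nodal ratio was 0.22, with an interval of -0.06 to 0.51 that includes 0.

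The root types were then compared by the mean log2 value over salt and control. This contrast is not that of the rule, but it is not independent of it, since the mean holds the S-type libraries whose values chose the genes: a low control S-type value makes a gene more likely to count as higher under salt and also lowers its S-type mean. A linear model would take its error from the very root type by salt differences that chose these genes, so only shares are given. The 36 higher genes were at least 2-fold higher in S-type than in L-type roots in 13.9% of cases and lower in 19.4%, where 7.13% and 7.32% of all genes at the minimum were so. Against nodal roots, S-type roots were at least 2-fold higher in 16.7% and lower in 36.1% of the higher genes, where the shares over all genes were 16.7% and 12.1%. S-type roots were the lowest of the 3 root types for 25 of the 36 higher genes, 69.4%, against 36.4% of all genes, and the highest for 8. The median difference of S-type from L-type roots was -0.54 for the higher genes and 0.09 over all genes.

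For the 39 lower genes, S-type roots were at least 2-fold higher than L-type roots in 10.3% and lower in 7.69% of them, and against nodal roots higher in 25.6% and lower in 23.1%. S-type roots were the highest root type for 18 of the 39, 46.2%, against 48.6% of all genes, and the lowest for 14. L-type roots lay between S-type and nodal roots for 19 of the higher and 23 of the lower genes, 52.8% and 59.0%, against 63% of all genes.

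Within each treatment, the median log2 ratio of S-type over L-type roots was -0.01 under salt and -1.05 under control for the higher genes, and -0.45 under salt and 0.62 under control for the lower genes. Salt S-type roots were below both other salt libraries for 12 of the 36 higher genes, and control S-type roots were below both other control libraries for 28, against 37.3% of all genes under salt and 35% under control. Salt S-type roots were above both other salt libraries for 16 of the 36, and control S-type roots above both other controls for 4. For the lower genes, salt S-type roots were above both other salt libraries for 7 of 39 and control S-type roots above both other controls for 26, against 47.8% of all genes under salt and 46.1% under control. At 2-fold, S-type roots were higher than L-type roots for 22.2% and lower for 5.56% of the higher genes in the salt libraries, and higher for 11.1% and lower for 55.6% in the control libraries. Against nodal roots the higher genes had 19.4% higher and 11.1% lower in the salt libraries, and 8.33% higher and 58.3% lower in the control libraries. S-type roots were thus more often lower than higher for these genes in the control libraries alone, and not in the salt libraries. The rule fixes the direction of this shift. From control to salt, each higher gene must rise in S-type roots against both other root types by more than 0.5 on the log2 scale. Each lower gene must fall likewise. These counts share the S-type libraries with the rule, so error of an S-type library and a response to salt cannot be told apart in them.

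**Figure D5:**
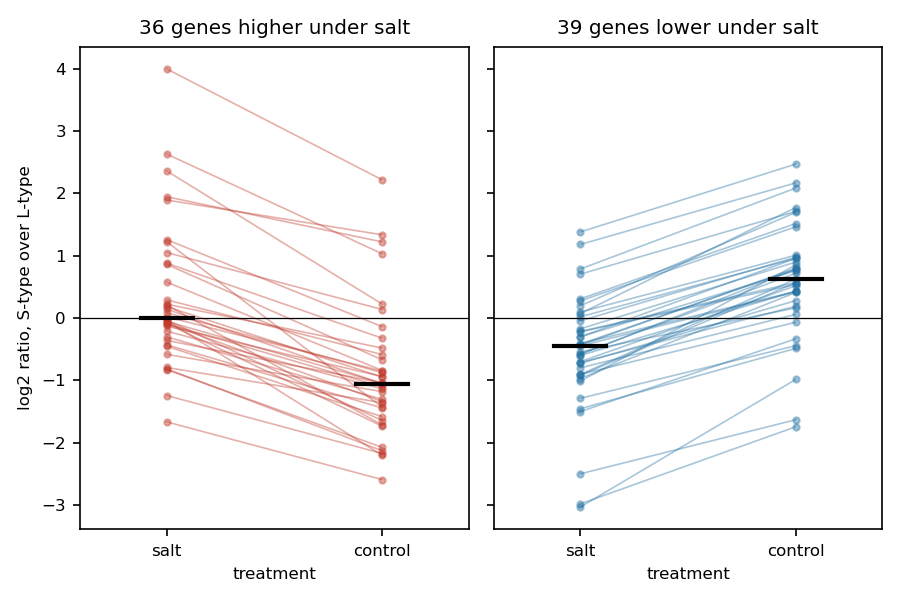
Log2 ratio of S-type over L-type roots for the 36 higher (left) and 39 lower (right) genes, under salt and under control; each line is 1 gene and black bars are medians. The median of the higher genes is -0.01 under salt and -1.05 under control, and that of the lower genes -0.45 under salt and 0.62 under control. The rule fixes the direction of the shift between treatments.

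Chromosome 1 carried 13 of the 36 higher genes, 36.1%, and 6 of the 39 lower genes, 15.4%, while it holds 14.7% of the genes at the minimum. No pair of genes differing the same way lay within 20 kb of each other. The models were somewhat short, with a median span of 3819 bases for the higher and 3404 bases for the lower genes, against 4357.5 bases over all genes at the minimum. Another gene model overlapped 9 of the higher and 13 of the lower ones, 25% and 33.3%, where 27.9% of the models at the minimum overlap another. The model of Os12g0228700, which spans 67717 bases, overlaps 10 others, and that of Os11g0676500, of 35923 bases, overlaps 6, so their counts may include more than the named gene.

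In the authors' deposited table, which sets the same single libraries against each other, 0 of the 75 genes were called for salt against control in S-type roots, where 14 of 37942 models were called in all and 6 of those at the minimum, 0.0453%. The lowest q-value of the authors' deposited table was 0.645 for the higher genes, that of Os09g0482800, and 0.767 for the lower genes, that of Os01g0185500. Without adjustment, the authors' deposited table gave a p-value under 0.05 for 3 of the higher and 2 of the lower genes, and for 65 of the 13254 genes at the minimum, 0.49%. That comparison is the one that chose the genes. With 1 library per group, these p-values do not rest on replicates of a group. How their spread was modelled is not given in the sources used here.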

How the data were processed

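RNA was sequenced from 6 libraries of rice roots, 1 per group. The submitters' processing notes list the build IRGSP-1.0 and, as the authors' tools, Cuffdiff 2.2.1, Cufflinks 2.2.1, Bowtie, TopHat2 2.0.11 and Trimmomatic 0.32. Their settings are not given in the sources used here. The labels name a strand-specific library. Values deposited as counts are a scaled signal, fragments times 1 factor per library, with 99.9% to 99.96% of values above 0 whole within 0.02 fragments. The other 24 columns of that table, of variance and status, were not used. The deposited comparison table gives FPKM, p-values and q-values of Cuffdiff, per the file headers. Its starts count from 0, as model lengths showed, and 1 was added.

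Ratios used the deposited signal plus 1, and counting intervals are exact conditional binomial intervals, without the added 1, on recovered fragments. Genes were named if among the 12 largest ratios or 4 highest S-type FPKM in each direction, next to the limit, near another member, or carrying a symbol. The files pair no identifier with a name. After the members and their values were known, genes of RefSeq assembly ASM3414082v1 at the members' positions were listed, and 13 symbols also recalled with their identifiers were proposed. A symbol was kept if its chromosome, its length and at least 0.4 of its neighbours, aligned by gene midpoint, matched: 11 of 13 members and 15 of 15 markers. BGLU4 (Os01g0897600) and RFC3 (Os02g0775100) failed. A looser check, aligned by start, end or midpoint, was tried after this was seen and would keep all 13; it was not used. Members and lists were chosen with earlier results of these data known. No promoter sequences were used here, so the planned motif search was not run. In edgeR 4.0.16, a quasi-likelihood test of recovered counts for salt, with root type as a term and chosen after seeing the data, called 28 of 20136 genes and 0 of the 75 members. Members changed in S-type roots alone by the rule, so a test of salt over all root types could hardly call them. Nothing is read from the 0. Rule, intervals and edgeR test were run on simulated data as a check of the code. The simulated counts for the rule and intervals varied by counting error alone. Those for the edgeR test had salt effects shared by all root types. Neither shows how the methods do with differences between libraries of a group in S-type roots alone. Python 3.11.15 and R 4.3.3 were used.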

Additional observations from a re-analysis of the deposited data

Results flagged for a closer look

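Of the 36 genes higher under salt in S-type roots, 9 had ratios below 0 in both L-type and nodal roots, FOS1 and Os09g0482800 among them. This is 25%, against 30.5% of all genes at the minimum. Of the 39 genes lower under salt in S-type roots, 8 had ratios above 0 in both other root types, LOGL7 and Os12g0416800 among them. This is 20.5%, against 29% of all genes at the minimum, and 20 of the 39 had both ratios below 0. They are listed because the sign of the ratio in S-type roots was opposite to that in the other root types. Both shares lie below those of all genes, and this difference was not tested. The other ratios lie within 0.5 of 0 by the rule, and some are near 0, such as -0.02 and -0.05 for FOS1. Others have counting intervals that leave out 0, such as the L-type ratio of -0.44 (-0.84 to -0.05) for Os09g0482800. Among the lower genes, Os06g0698748 had ratios of 0.21 (0.07 to 0.36) in L-type and 0.48 (0.30 to 0.66) in nodal roots.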

How the results depend on the processing

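The number of genes depended most on the limits of the rule. With a minimum of 10 scaled fragments, 155 genes were higher and 143 lower under salt in S-type roots alone, and with 100 there were 17 and 18. With a limit of 0.25 in L-type and nodal roots there were 14 and 13, with 0.75 there were 64 and 71, and with a limit of 1.5 in S-type roots 6 and 5. From FPKM, 33 genes were higher and 69 lower, of which 26 and 34 were among the 36 and 39, and the cause was not tested. Other pseudocounts, TMM or library total scaling and counting intervals gave 31 to 39 higher and 34 to 40 lower genes. Across both pseudocounts, both scalings and FPKM, 18 of the 36 and 21 of the 39 genes remained. Library total scaling moved the median ratio to 0.09 in L-type roots. The share of higher genes at least 2-fold apart between S-type and L-type roots was 33.3% over both treatments, 27.8% in salt libraries alone and 66.7% in control libraries alone, and the direction turned: S-type roots were more often higher in the salt and more often lower in the control libraries. Between S-type and nodal roots it was 52.8% over both treatments, 30.6% in salt libraries alone and 66.7% in control libraries alone, with the same turn. The rule fixes which way both shifts between treatments go, so nothing is read from them. No paired analysis was possible because each group holds 1 library and the labels give all of them the same replicate number. The edgeR fit with root type as a term tests salt over all root types, not in S-type roots. Depth limits weakly counted genes: FOS1 held 19 and Os12g0416800 39 fragments in control S-type roots.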
